A study of Homo sapiens with 8 samples.

Results

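MP38 is a BAP1-mutant uveal melanoma (UM) cell line, and the comparison described here sets a BET inhibitor directly against a pan-HDAC inhibitor in these cells. The members are the 2 libraries from cells grown with 1200 nM mivebresib and the 2 libraries from cells grown with 40 nM quisinostat, 4 of the 8 bulk RNA sequencing libraries of the series. They were taken by their treatment label and not by a measured value, though the comparison itself was chosen with earlier results of these data known. Both drugs were dissolved in DMSO and given for 24 h. The 2 control libraries came from MP38 cells kept for the same 24 h in 0.1% DMSO, and serve here only to tell from which side a difference between the drugs came. The remaining 2 libraries, from 40 nM romidepsin, entered the filter on low counts, the scaling and the shared model, and their gene levels are not described below. The doses of the drugs differ in concentration and were picked by the study for a visible effect on the cells with little death, so every difference below is between these 2 treatments, and dose and drug class cannot be told apart. All libraries came from 1 cell line, as duplicate wells, so the p-values measure the spread between these wells.

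BET proteins, among them BRD2 and BRD3, carry bromodomains that bind acetylated lysines of histones, and the family helps the kinase P-TEFb to release paused RNA polymerase II into elongation. Mivebresib occupies those bromodomains and takes BET proteins off acetylated chromatin. Histone deacetylases (HDAC) remove the same acetyl groups, and quisinostat is a hydroxamate that inhibits most of the zinc-dependent ones, so that acetylation accumulates. One drug therefore removes a reader of acetylation and the other an eraser, and genes that respond in opposite ways or by unequal amounts are what a direct comparison shows. UM cells descend from melanocytes of the uveal tract, which share their neural crest origin with glia and peripheral neurons.

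Depth was nearly equal, with 28483235 to 28919626 counts in the 4 libraries compared. The Euclidean distance over the log2 CPM (counts scaled to library size by the TMM method) of all tested genes was 48.2 between the mivebresib libraries and 36.7 between the quisinostat libraries, and ran from 141.7 to 142.3 between libraries of different drugs. Of 10 uveal melanocyte markers, 9 passed the filter on low counts in MP38. TYRP1, a melanosomal enzyme, reached 3074 and 3163 CPM with mivebresib and 2748 and 3228 CPM with quisinostat, whereas DCT, another one, had at most 5 counts in any of these libraries. Of 18 markers of immune, endothelial, fibroblast, epithelial and retinal pigment epithelial cells, 14 stayed at or below 12 counts in all 4 libraries and CD3E, CDH5, LUM, KRT5, RPE65 and RLBP1 were at 0. The rest exceeded that limit, among them the fibroblast marker COL1A1 with 28 and 48 counts with mivebresib and 327 and 251 with quisinostat. Summed over all 18 markers, the counts were 2133 and 1975 with mivebresib and 2981 and 2842 with quisinostat. The part of these markers in the results below was not tested. In bulk RNA, fewer cells of a kind and less RNA per cell cannot be told apart.

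Genes lower with mivebresib than with quisinostat were by far the more numerous. Of 15085 genes tested, 261 (1.73%) were called higher with mivebresib and 1899 (12.6%) were called lower, at a Benjamini-Hochberg adjusted p below 0.05 from edgeR's quasi-likelihood test and a log2 difference beyond 1.5, the thresholds of the study. A log2 difference is throughout the value with mivebresib minus that with quisinostat. The lower genes made up 87.9% of all calls. Much of this excess lay in genes of low level. Among the 9745 genes with a mean log2 CPM of at least 3 in the 4 libraries, 99 (1.02%) were higher and 315 (3.23%) were lower, while among the other 5340 genes 162 (3.03%) were higher and 1584 (29.66%) lower. Without a limit on the size of the difference the counts were 3954 higher (26.2%) and 4756 lower (31.5%). The lower genes had a median log2 difference of -2.44, with 630 of them beyond 3 in size, against 1.84 and 32 for the higher genes. Of the lower genes, 337 had at most 3 counts in both mivebresib libraries, whereas 16 of the higher genes had so few in both quisinostat libraries. Such genes could pass the filter on low counts only through libraries in which they were high. With no such filter, 22876 genes were tested, of which 274 were called higher and 2002 lower (88% of the calls). The part of the filter in the size of the differences was not tested.

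**Figure D1:**
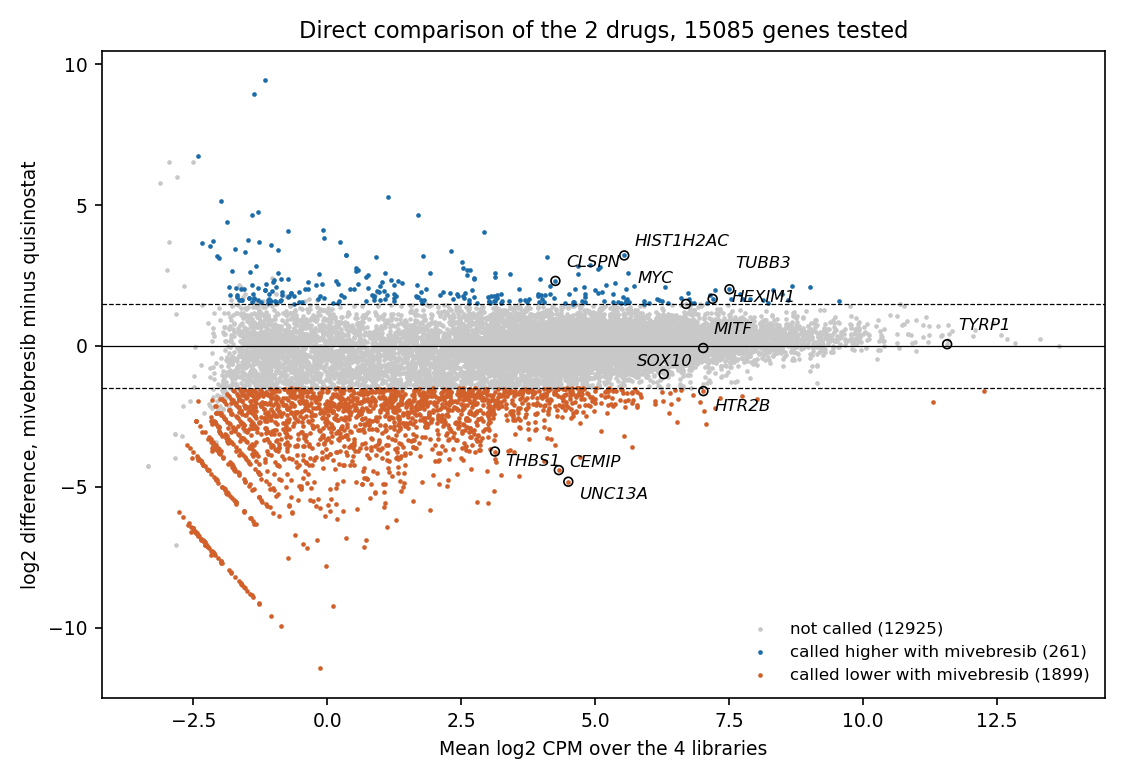
Each point is 1 of 15085 tested genes, with its mean log2 CPM over the 2 mivebresib and 2 quisinostat libraries on the horizontal axis and its log2 difference (mivebresib minus quisinostat) on the vertical axis; dashed lines mark 1.5 in size. The 1899 orange genes called lower crowd towards low levels, where straight rows of points are genes with 0 to a few counts with mivebresib. The 261 blue genes called higher also lie more often at low levels. Of these, 162 (3.03% of the genes tested there) are below a mean log2 CPM of 3 and 99 (1.02%) are at or above it.

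The control libraries showed from which side these differences came. Both drugs were set against the same 2 control libraries, so their values are given side by side. For the 261 genes higher with mivebresib, the median log2 fold change (FC) against control was 1.19 for mivebresib and -0.84 for quisinostat. Mivebresib was called above control for 88 of them (33.7%) and below it for 1, and quisinostat above for 1 and below for 47 (18%). For the 1899 genes lower with mivebresib, the median was -0.71 for mivebresib and 1.91 for quisinostat. Quisinostat was called above control for 1100 of these (57.9%) and below it for 8, whereas mivebresib was called below for 479 (25.2%) and above for 108 (5.7%). Over all tested genes, the calls against control were 3.96% up and 4.36% down for mivebresib (8.32% in all) and 11.2% up and 1.03% down for quisinostat (12.2% in all).

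The promoters of 5 genes with large differences are shown because they stand for the groups described below: a histone gene, a regulator of P-TEFb and a replication gene higher with mivebresib, and a synaptic and a matrix gene lower with it. The sequences are RefSeq's on GRCh38, 250 bases before to 50 bases after the start of the gene, 5′ to 3′ on the coding strand. Capitals mark matches, on either strand, to 7 motifs, namely the NF-Y box with the letters CCAAT, the GC box with GGGCGG, the CRE with TGACGTCA, the AP-1 site with TGACTCA, the E-box with CACGTG, the SOX site with ACAAAG and, for the box named after its first letters, TATAAA.
HIST1H2AC (listed as H2AC6, chr6:26123922-26124221, plus strand): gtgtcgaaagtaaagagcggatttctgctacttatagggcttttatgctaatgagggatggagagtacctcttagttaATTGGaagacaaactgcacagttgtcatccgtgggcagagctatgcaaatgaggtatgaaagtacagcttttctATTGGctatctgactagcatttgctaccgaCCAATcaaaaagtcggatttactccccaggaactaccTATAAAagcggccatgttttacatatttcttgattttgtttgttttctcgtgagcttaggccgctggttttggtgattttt
HEXIM1 (chr17:45148225-45148524, plus strand): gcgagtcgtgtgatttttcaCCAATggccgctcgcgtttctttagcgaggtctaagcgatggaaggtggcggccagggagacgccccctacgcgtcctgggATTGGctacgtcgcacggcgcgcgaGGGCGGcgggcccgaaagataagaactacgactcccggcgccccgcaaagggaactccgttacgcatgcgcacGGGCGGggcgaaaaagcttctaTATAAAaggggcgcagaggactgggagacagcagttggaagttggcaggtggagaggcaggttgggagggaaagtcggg
CLSPN (chr1:35769929-35770228, minus strand): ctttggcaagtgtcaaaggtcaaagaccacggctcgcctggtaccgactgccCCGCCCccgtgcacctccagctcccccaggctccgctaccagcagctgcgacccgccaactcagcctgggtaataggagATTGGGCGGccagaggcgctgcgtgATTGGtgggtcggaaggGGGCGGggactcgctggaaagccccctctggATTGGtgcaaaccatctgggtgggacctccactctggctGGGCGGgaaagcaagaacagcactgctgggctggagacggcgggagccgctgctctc
UNC13A (chr19:17688305-17688604, minus strand): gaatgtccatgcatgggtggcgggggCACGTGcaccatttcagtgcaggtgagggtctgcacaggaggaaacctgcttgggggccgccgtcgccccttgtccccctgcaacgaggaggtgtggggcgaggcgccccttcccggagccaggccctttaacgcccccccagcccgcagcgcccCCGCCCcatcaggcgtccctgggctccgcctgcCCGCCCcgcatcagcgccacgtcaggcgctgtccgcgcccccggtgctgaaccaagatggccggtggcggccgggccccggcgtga
CEMIP (chr15:80779120-80779419, plus strand): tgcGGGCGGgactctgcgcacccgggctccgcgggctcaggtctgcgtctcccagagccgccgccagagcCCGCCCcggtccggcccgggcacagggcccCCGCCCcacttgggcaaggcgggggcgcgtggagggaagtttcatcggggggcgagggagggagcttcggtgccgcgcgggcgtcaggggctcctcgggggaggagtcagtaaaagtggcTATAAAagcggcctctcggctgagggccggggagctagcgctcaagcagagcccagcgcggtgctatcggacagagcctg
The histone promoter holds 1 TATA box 31 bases before the start and 3 NF-Y boxes, and has a GC content of 41.0%. The HEXIM1 promoter holds 1 TATA box, 2 NF-Y boxes and 2 GC boxes, and that of CLSPN 3 NF-Y boxes and 4 GC boxes, of which 1 pair overlaps. UNC13A has 2 GC boxes and 1 E-box and CEMIP 1 TATA box and 3 GC boxes, each in a window of 73.0% GC. Among all 34943 promoters of this length in the table, the median GC content is 58.7%, and 11.6% hold a TATA box, 34.6% an NF-Y box, 44.9% a GC box, 7.2% an E-box, 16.1% a SOX site, 5.0% an AP-1 site and 1.8% a CRE. These matches describe letters and not bound sites, and the called genes were not compared as sets, since only 76.7% of the tested genes had a sequence.

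The genes of the drugs' own pathways came first. Of 14 tested genes of the BET family, P-TEFb and its regulators, 3 were called higher with mivebresib (21.4%) and none lower. Of all tested genes, 1.73% were called higher and 12.6% lower. The median log2 difference of the list was 0.64, against -0.033 for all tested genes. HEXIM1, which holds P-TEFb inactive in the 7SK particle and is a common marker of BET inhibition, had 268 and 255 CPM in the mivebresib libraries, 85.5 and 78.9 CPM in the quisinostat libraries and 109.9 and 113 CPM in the control libraries. The 3 groups did not overlap, and quisinostat lay below control where mivebresib lay above it. Its log2 difference was 1.67 (standard error 0.08, adjusted p = 2.0e-06), and at 1.49 it missed the limit of 1.5 when libraries were scaled by size alone. BRD2, a target of mivebresib, had 405 and 378 CPM with mivebresib, 112 and 108 CPM with quisinostat and 178 and 174 CPM in the control. Here too the drugs lay on opposite sides of the control, and the log2 difference reached 1.83 (standard error 0.08, adjusted p = 1.3e-06). MEPCE, the enzyme that caps 7SK RNA, stood at 116 and 106 CPM with mivebresib, 26.3 and 24.4 CPM with quisinostat and 94.9 and 93.7 CPM in the control. That difference of 2.13 (standard error 0.08, adjusted p = 1.1e-06) came mostly from a fall with quisinostat (log2 FC -1.89, adjusted p = 1.7e-06). MEPCE overlaps ZCWPW1 on the opposite strand, whose log2 difference was 1.89, and whether the counting used strand is not given in the sources used here.

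The other BET and P-TEFb genes differed by less. BRD3 had a log2 difference of 0.52 (adjusted p = 0.0017), and the P-TEFb kinase CDK9 and its cyclins CCNT1 and CCNT2 had 0.75, 0.57 and 0.25 (adjusted p = 0.00017, 0.0032 and 0.052). HEXIM2, the paralog of HEXIM1, went the other way with 3.18 and 2.23 CPM with mivebresib and 8.04 and 6.97 CPM with quisinostat. Its difference of -1.47 (adjusted p = 0.0002) lay just short of the limit on size and passed it at -1.653 with libraries scaled by size alone, at -1.747 without mivebresib replicate 1 and at -1.558 without quisinostat replicate 2. The scaffold genes of the super elongation complex, AFF1 and AFF4, stood at 0.31 and 0.72 (adjusted p = 0.027 and 0.00025) and its elongation factor ELL2 at -0.68 (adjusted p = 0.00032). SERTAD1 had 0.73 (adjusted p = 0.0036) and LARP7, which binds the end of 7SK RNA, 0.16 (adjusted p = 0.096), with a sign that turned when libraries were scaled by size alone.

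None of the 11 HDAC genes was called. Most lay near 0, with HDAC1 at 0.13, HDAC2 at 0.21, HDAC5 at 0.10, HDAC7 at 0.04, HDAC10 at -0.17 and HDAC11 at 0.30, and the signs of HDAC1, HDAC5 and HDAC7 depended on the scaling. HDAC3, the catalytic subunit of the NCoR complex, had 111 and 115 CPM with mivebresib against 69.7 and 69.5 CPM with quisinostat (log2 difference 0.70, adjusted p = 0.00056). HDAC8 had 7.39 and 7.52 CPM against 18.2 and 17.6 CPM (-1.27, adjusted p = 4.4e-05), the largest difference in the list and lower with mivebresib. The class IIa genes HDAC4 and HDAC9 were at -0.66 and -0.49 (adjusted p = 0.0026 and 0.0015) and the cytoplasmic tubulin deacetylase HDAC6 at -0.40 (adjusted p = 0.011).

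Histone genes had the highest median log2 difference of the 34 gene lists described here. Of 17 tested of 20 listed, 12 were called higher and 1 lower, with a median log2 difference of 2.02, against 1.73% and 12.6% of all genes. The median FC against control was 1.18 on the log2 scale for mivebresib and -0.69 for quisinostat. HIST1H2AC (chr6:26124145-26139116), whose promoter is printed above, encodes a core histone H2A and had 146 and 138 CPM with mivebresib, 15.6 and 15.0 CPM with quisinostat and 45.3 and 44.1 CPM in the control. The drugs moved it in opposite directions, with a log2 FC against control of 1.67 for mivebresib (adjusted p = 2.3e-06) and -1.55 for quisinostat (adjusted p = 2.8e-06). Directly compared, it was 9.28-fold higher with mivebresib (log2 difference 3.21, standard error 0.08, adjusted p = 3.5e-07). HIST1H4H, a histone H4 gene, had 55.4 and 47.0 CPM, 5.95 and 5.54 CPM and 20.3 and 16.8 CPM in the same order, a difference of 3.15 (adjusted p = 1.3e-06). HIST2H2BE, a histone H2B gene, had 97.8 and 84.3 CPM, 13.8 and 12 CPM and 19.3 and 19.5 CPM (2.82, adjusted p = 9.7e-07), so that most of its difference lay on the mivebresib side.

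Other H2B genes followed. HIST1H2BD had 125 and 116 CPM with mivebresib and 21.9 and 18.1 CPM with quisinostat, and HIST1H2BG 31.1 and 30.0 CPM and 1.77 and 1.88 CPM. HIST1H2BC stood at 15.6 and 15.9 CPM and 0.823 and 0.414 CPM, the largest difference of the list (4.66, adjusted p = 1.7e-06). HIST1H2BF had 93 and 92 counts with mivebresib and 6 and 6 counts with quisinostat, so its difference of 4.11 rests on few counts. The near-identical gene copies HIST2H4A and HIST2H4B (2.39 and 2.44) and HIST2H2AA4 (2.72) cannot be told apart from their paralogs by short reads, and both H4 copies overlap H3 copies on the opposite strand with differences of 3.24. Transcripts of replication-dependent histone genes mostly lack a poly(A) tail, while these libraries were prepared from mRNA, so the counts reflect the part that was captured. Variant histones and the linker histone H1F0 were spread widely. H2AFX was called higher (1.66, adjusted p = 1.4e-05), while H3F3B and H2AFZ stood at 0.91 and 0.14 (adjusted p = 0.00015 and 0.42), these 3 being named after their values were seen. H1F0, the linker histone of resting cells, had 343 and 336 CPM with mivebresib and 258 and 246 CPM with quisinostat, both above the 177 and 166 CPM of the control (log2 difference 0.43, adjusted p = 0.0018), and H2AFY2, a macroH2A variant, was the 1 histone called lower (-3.56, adjusted p = 0.00024) at 2 and 4 counts with mivebresib and 41 and 43 counts with quisinostat.

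Of 47 tested genes of DNA replication, 8 were called higher with mivebresib than with quisinostat (17.0%) and none lower. The shares of all tested genes were 1.73% and 12.6%, and the median log2 difference of the list was 0.75. The difference arose below the control level. Neither drug was called above control for any of them. Quisinostat was called below for 18 and mivebresib for 1, with medians of -1.24 and -0.51. Over all tested genes, 1.03% were called below control with quisinostat and 4.36% with mivebresib. CLSPN, claspin of the replication checkpoint, had 41.7 and 43.3 CPM with mivebresib, 8.61 and 8.53 CPM with quisinostat and 32.6 and 41.0 CPM in the control. The mivebresib libraries lay just above the control and the quisinostat libraries far below it (log2 difference 2.31, standard error 0.12, adjusted p = 2.3e-06). MCM7, a subunit of the replicative helicase, had 95.3 and 97.1 CPM, 22.3 and 25.1 CPM and 116 and 119.8 CPM in that order (2.02, adjusted p = 1.1e-06). TIMELESS, of the fork protection complex, had 61.9 and 66.4 CPM, 16.4 and 18.2 CPM and 57.9 and 67.8 CPM (1.89, adjusted p = 2.7e-06), with mivebresib inside the range of the control.

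Mitosis genes did not separate the drugs to the same degree. Of 48 tested none was called, with a median difference of 0.37 and medians of -0.71 for mivebresib and -1.07 for quisinostat against control. Among 25 cell cycle regulators 2 were called higher (8.0%) and none lower, against 1.73% and 12.6% of all tested genes. CCNE2, the S-phase cyclin E2, had 22.1 and 20.6 CPM with mivebresib and 7.22 and 6.4 CPM with quisinostat, with 23.4 and 24.7 CPM in the control (1.65, adjusted p = 5.0e-06, and 1.47 with libraries scaled by size alone). GADD45A, an inducer of growth arrest after damage, had 394 and 380.3 CPM with mivebresib, 127 and 114 CPM with quisinostat and 128 and 109.9 CPM in the control (1.68, adjusted p = 4.4e-06, and 1.497 under the same scaling). Quisinostat left it inside the range of the control. CDKN1A, which encodes the CDK inhibitor p21 and is a textbook HDAC inhibitor target, differed little, at 289 and 261 CPM with mivebresib, 227 and 200.5 CPM with quisinostat and 312 and 271 CPM in the control (0.36, adjusted p = 0.02). MYC had 176 and 173 CPM with mivebresib and 62.0 and 61.8 CPM with quisinostat around 102 and 101 CPM in the control. The drugs thus lay on opposite sides of the control, and the difference of 1.49 (standard error 0.07, adjusted p = 1.7e-06) fell just short of the limit on size. It passed that limit at 1.504 in a fit of the 4 libraries alone, at 1.509 without mivebresib replicate 2 and at 1.502 without quisinostat replicate 2. None of 28 tested genes of the MYC network was called (median 0.33).

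**Figure D2:**
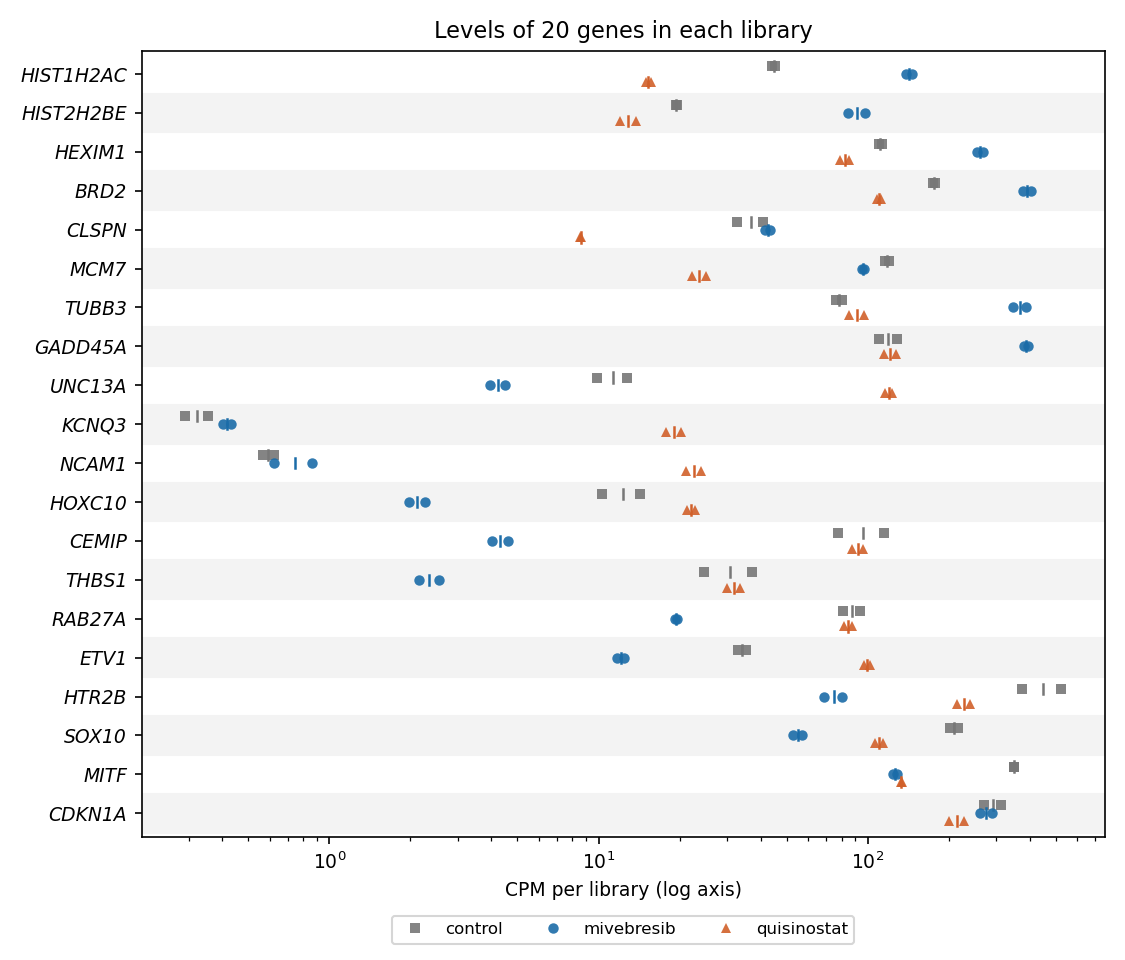
CPM of 20 genes (log axis) in each of the 2 control (grey squares), 2 mivebresib (blue circles) and 2 quisinostat (orange triangles) libraries, with a bar at each mean. HIST1H2AC, HIST2H2BE, HEXIM1 and BRD2 lie above control with mivebresib and below it with quisinostat, UNC13A and ETV1 the other way round, and MITF lies together for both drugs, below control.

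Early response, lipid and Polycomb lists were called both ways. Of 26 AP-1 and immediate early genes 3 were called higher (11.5%) and 2 lower (7.7%), against 1.73% and 12.6% of all tested genes. KLF2, a Krüppel-like factor, had 16.1 and 14.4 CPM with mivebresib, 3.04 and 2.71 CPM with quisinostat and 3.61 and 2.85 CPM in the control (2.41, adjusted p = 6.4e-06). RHOB, a small GTPase, had 361 and 298 CPM, 105 and 105 CPM and 124 and 93.6 CPM (1.65, adjusted p = 2.9e-05, and 1.47 scaled by size alone). For both genes the quisinostat libraries overlapped the control. The third, JUND, had 1.54 (adjusted p = 0.00028), a call that was lost at 1.472 without mivebresib replicate 1 and at 1.425 without quisinostat replicate 1. Its call was also lost at 1.452 with upper-quartile factors and at 1.356 with libraries scaled by size alone. EGR2 and EGR3, zinc finger factors induced by growth signals, were the 2 lower ones (-2.88 and -2.35, adjusted p = 1.6e-05 and 2.4e-05).

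Among 24 genes of cholesterol and fatty acid supply, 3 were called higher (12.5%) and 2 lower (8.3%), with a median of 0.56. The shares of all tested genes were 1.73% and 12.6%. FASN, the fatty acid synthase, had 521 and 477 CPM with mivebresib, 152 and 167 CPM with quisinostat and 291 and 371 CPM in the control (1.65, adjusted p = 1.5e-05, and 1.47 scaled by size alone). The sterol sensor INSIG1 had 1.58 (adjusted p = 6.4e-06, and 1.49 with upper-quartile factors). The sterol carrier STARD4 went the other way (-1.87, adjusted p = 2.0e-06). BBC3, the proapoptotic protein PUMA, was the 1 called of 17 BCL2 family genes (1.64, adjusted p = 0.00014), with 11 and 10.8 CPM with mivebresib, 3.61 and 3.41 CPM with quisinostat and 5.49 and 3.54 CPM in the control. It missed the limit at 1.46 when libraries were scaled by size alone. MT2A was the 1 called of 5 metallothioneins (1.53, adjusted p = 0.00024). Its call was lost at 1.483 without mivebresib replicate 1 and at 1.452 without quisinostat replicate 2. Scaling mattered too, as it was lost at 1.449 with upper-quartile factors and at 1.353 with libraries scaled by size alone. Of 32 Polycomb genes, EZH1, a catalytic subunit, was higher (1.84, adjusted p = 4.7e-06), while PHC1 and CBX7, subunits of PRC1, were lower (-2.28 and -1.52, adjusted p = 4.0e-06 and 2.2e-05). The call of CBX7 was lost at -1.493 without mivebresib replicate 1.

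The largest differences upward outside these lists, at a mean log2 CPM of at least 3, were in FOXRED2, a flavoprotein of the endoplasmic reticulum, and MCRIP1, a partner of the corepressor CtBP. FOXRED2 had 78.4 and 84.7 CPM with mivebresib, 10.7 and 11.3 CPM with quisinostat and 24.0 and 32.1 CPM in the control (2.89, adjusted p = 1.8e-06). MCRIP1 had 72.5 and 65.1 CPM, 9.53 and 9.65 CPM and 39.1 and 27.5 CPM (2.84, adjusted p = 3.3e-06). In both genes the control lay between the drugs. They were followed by the arylsulfatase gene ARSD (2.57), the oxidative stress response gene OSGIN1 (2.57) and KIAA1683 (2.59), all with an adjusted p of at most 8.8e-06. KIAA1683 differed in that both drugs lay above the 2.34 and 2.70 CPM of the control, with 19.8 and 23.0 CPM for mivebresib and 3.67 and 3.41 CPM for quisinostat.

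Many neuronal genes were lower with mivebresib. Some, such as CPLX2 and KCNA1, passed the filter on low counts only through the quisinostat libraries, so the counts describe the tested genes alone. Of 46 tested of 52 listed synaptic genes, 23 were called lower with mivebresib than with quisinostat (50%, against 12.6% of all tested genes) and 1 higher, with a median log2 difference of -1.58. Against control, the median FC was 0.67 on the log2 scale for mivebresib and 2.33 for quisinostat, with 10 genes called above and 3 below control for mivebresib and 30 above and none below for quisinostat, where 3.96% of all genes were above control with mivebresib and 11.2% with quisinostat. UNC13A (chr19:17601328-17688365), which primes synaptic vesicles for release, had 4.50 and 3.96 CPM with mivebresib, 116 and 123 CPM with quisinostat and 9.85 and 12.7 CPM in the control. Mivebresib lay below and quisinostat far above the control, and the log2 difference was -4.82 (standard error 0.15, adjusted p = 5.5e-07). SLC18A3, the vesicular acetylcholine transporter, had 1.54 and 1.33 CPM with mivebresib, 50.5 and 50.7 CPM with quisinostat and 4.92 and 5.37 CPM in the control. It was 35.2-fold lower with mivebresib (-5.14, adjusted p = 3.5e-07), and both drugs passed the thresholds against control, in opposite directions (-1.84 and 3.30). CPLX2, a complexin that clamps vesicle fusion, had 0 counts in both mivebresib and both control libraries and 34 and 21 counts with quisinostat, which makes it at least 16-fold lower with mivebresib when 3 counts over the group are taken as the floor. SLC17A6, a vesicular glutamate transporter, had 1 and 3 counts with mivebresib, 75 and 81 counts with quisinostat and 57 and 70 counts in the control, so that here the difference lay in a loss with mivebresib. The exception was BSN, the active zone scaffold bassoon, with 6.14 and 7.05 CPM with mivebresib, 1.30 and 1.66 CPM with quisinostat and 0.921 and 1.02 CPM in the control (2.16, adjusted p = 3.3e-05). SYN1, synapsin 1, was raised by both drugs, from 0.248 and 0.183 CPM in the control to 2.27 and 2.01 CPM with mivebresib and 5.44 and 6.24 CPM with quisinostat, and its difference of -1.45 (adjusted p = 0.00016) did not reach the limit on size, though it passed it at -1.532 without mivebresib replicate 1 and at -1.55 without quisinostat replicate 1.

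Ion channels and neurotransmitter receptors showed the same direction. Of 42 tested of 56 listed, 19 were called lower (45.2%, against 12.6% of all tested genes) and none higher (against 1.73%). The median log2 difference was -1.25, with medians against control of 0.45 for mivebresib and 2.18 for quisinostat. KCNA1 and CHRNA4 passed the filter on low counts only through the quisinostat libraries. Among all genes with a mean log2 CPM below 3, which include KCNQ3, KCNA1 and CHRNA4, 29.66% were called lower. KCNQ3, a subunit of the M-type potassium channel, had 0.402 and 0.432 CPM with mivebresib, 17.9 and 20.3 CPM with quisinostat and 0.354 and 0.292 CPM in the control. Against control the log2 FC with mivebresib was 0.36 (adjusted p = 0.52), and the gene was 45.3-fold lower than with quisinostat (log2 difference -5.50, standard error 0.21, adjusted p = 9.7e-07). KCNA1, a Shaker-type potassium channel, had 1 and 1 count in the mivebresib libraries against 82 and 84 counts with quisinostat, 72.7 times fewer for the same depth, with an exact 95% counting interval from 19.8 to 605. CHRNA4, a nicotinic acetylcholine receptor subunit, had 0 counts with mivebresib and 35 and 36 counts with quisinostat, at least 20.7-fold lower. In both genes the control libraries held at most 1 count.

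Genes of the neuronal cytoskeleton, adhesion and neuronal factors were split. Of 24 tested of 39 listed, 6 were called lower (25%, against 12.6% of all tested genes) and 1 higher (4.2%, against 1.73%), with a median of -0.99. Among all genes with a mean log2 CPM below 3, which include NEFL, STMN2 and NCAM1, 29.66% were called lower. NCAM1, the neural cell adhesion molecule, had 0.622 and 0.863 CPM with mivebresib, 21.1 and 24.1 CPM with quisinostat and 0.567 and 0.621 CPM in the control (-4.92, adjusted p = 6.3e-07). NEFL, the light neurofilament chain, had 0.256 and 0.144 CPM, 6.05 and 5.35 CPM and 0.106 and 0.256 CPM (-4.81, adjusted p = 1.0e-05). STMN2, a neuronal stathmin, had 1 and 0 counts with mivebresib and 37 and 17 counts with quisinostat. For these 3 genes mivebresib stayed near the control level, and quisinostat alone was above it. TUBB3 (chr16:89921392-89938761), the neuronal beta-tubulin, was the opposite case. It had 386 and 348 CPM with mivebresib, 96.7 and 85.1 CPM with quisinostat and 80.5 and 76.3 CPM in the control, was 4.04-fold higher with mivebresib (2.01, standard error 0.10, adjusted p = 1.7e-06), and had risen with mivebresib (log2 FC 2.23, adjusted p = 2.3e-06), whereas its FC with quisinostat was 0.21 (adjusted p = 0.089). NEFM, the medium neurofilament chain, was raised by both drugs, from 0.957 and 1.35 CPM to 4.61 and 4.64 CPM with mivebresib and 8.93 and 8.73 CPM with quisinostat (-0.93, adjusted p = 0.00087), and KIF5C, a neuronal kinesin, was raised by both but less by mivebresib, from 2.16 and 3.14 CPM to 35.9 and 37.2 CPM and 184 and 199 CPM (-2.39, adjusted p = 2.0e-06).

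**Figure D3:**
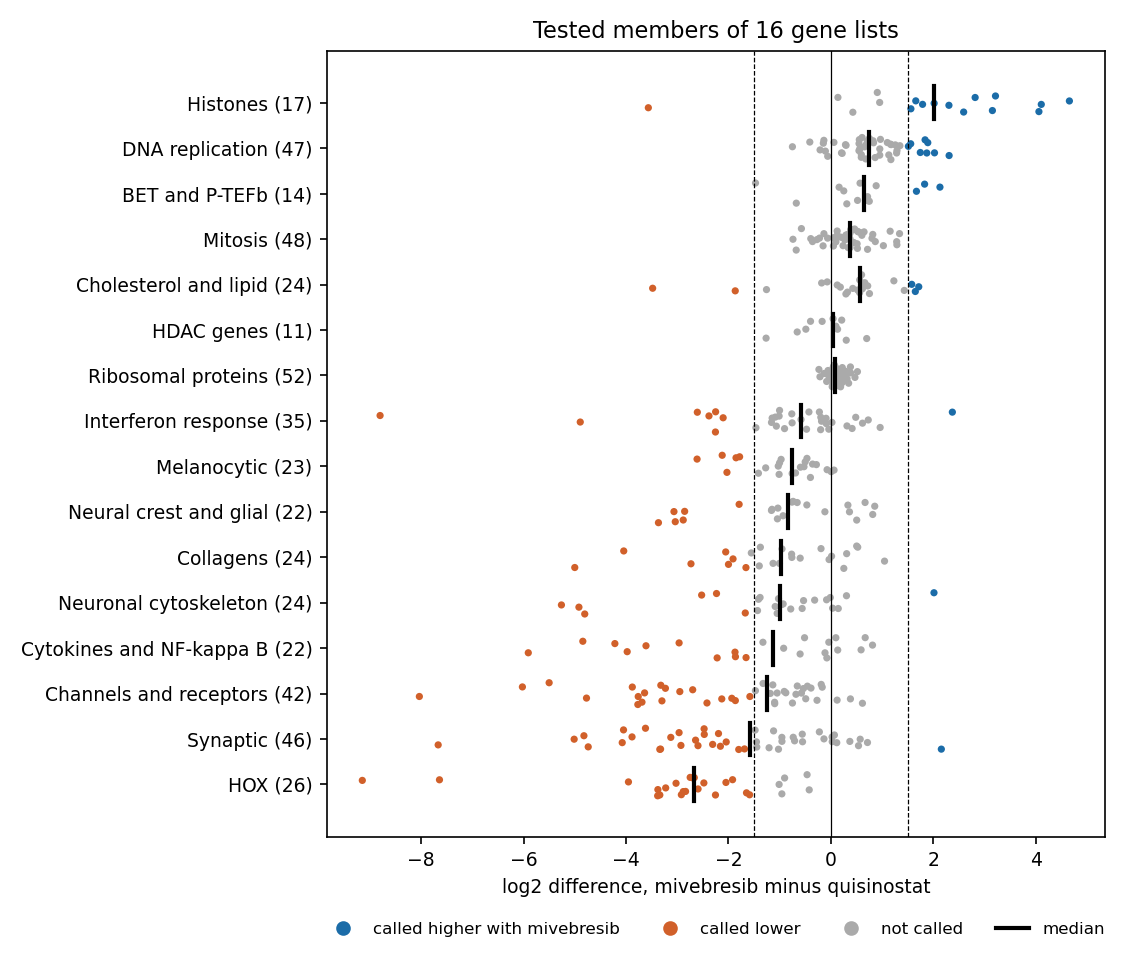
Log2 difference (mivebresib minus quisinostat) of every tested member of 16 gene lists, 1 point a gene, with a bar at the median and dashed lines at 1.5 in size; the number after each name counts its tested members. Histones, with a median of 2.02, lie to the right, and HOX genes, with a median of -2.68, lie farthest to the left, while the HDAC and ribosomal protein genes gather at 0.

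Lineage genes separated the drugs less evenly. Of 23 tested melanocytic genes, 5 were called lower with mivebresib (21.7%, against 12.6% of all tested genes) and none higher (median -0.76). MITF, the master regulator of melanocytes, was not separated by the test, with 124 and 129 CPM with mivebresib and 133 and 134 CPM with quisinostat, both far below the 351 and 349 CPM of the control (log2 difference -0.07, standard error 0.08, adjusted p = 0.43). SOX10, which acts upstream of MITF, did differ. It had 57.2 and 52.8 CPM with mivebresib, 107 and 114 CPM with quisinostat and 216 and 202 CPM in the control, a difference of -1.0 (standard error 0.10, adjusted p = 4.6e-05) below the limit on size. RAB27A, which tethers melanosomes for transport, had 19.2 and 19.6 CPM with mivebresib against 87.2 and 81.7 CPM with quisinostat and 93.3 and 81.1 CPM in the control (-2.12, adjusted p = 1.7e-06). RAB38, needed to sort enzymes to melanosomes, and CAPN3, a calpain, had -2.03 and -2.61 (adjusted p = 2.4e-05 and 1.0e-05). In these 3 genes quisinostat lay in or close to the range of the control and mivebresib well below it. MLANA, a melanosomal antigen, was at 83.4 and 80.2 CPM and 101 and 98.6 CPM (-0.28, adjusted p = 0.03).

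Of 22 neural crest and glial genes 6 were called lower (27.3%) and none higher (median -0.85). The shares of all tested genes were 12.6% and 1.73%. Among all genes with a mean log2 CPM below 3, which include ERBB3 and FABP7, 29.66% were called lower. ETV1, an ETS factor, had 12.5 and 11.7 CPM with mivebresib, 96.7 and 102 CPM with quisinostat and 33.1 and 35.2 CPM in the control, with the drugs on opposite sides (-3.04, standard error 0.09, adjusted p = 5.5e-07). ERBB3, the neuregulin receptor of glia, had 0.878 and 0.899 CPM, 8.67 and 9.74 CPM and 3.65 and 4.75 CPM in that order (-3.37, adjusted p = 3.9e-06), again with the control between the drugs. FABP7, a fatty acid binding protein of radial glia, was at 9 and 9 counts with mivebresib and 94 and 80 counts with quisinostat (-3.06, adjusted p = 3.7e-05). NGFR, the neurotrophin receptor of neural crest cells, was raised by both, from 1.63 and 1.86 CPM in the control to 17.2 and 15.7 CPM with mivebresib and 31.9 and 35.6 CPM with quisinostat (-1.04, adjusted p = 5.1e-05).

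Among 13 tested genes of the class 2 risk panel for UM and genes studied with it, 5 were called lower with mivebresib (38.5%) and none higher. The shares of all tested genes were 12.6% and 1.73%. The study describes HTR2B as a high-risk marker and LMCD1 and ROBO1 as low in class 2 tumors, so the count has no single direction of risk. HTR2B, a serotonin receptor, had 69.0 and 80.5 CPM with mivebresib, 215 and 239 CPM with quisinostat and 376 and 522 CPM in the control. Both drugs lay below the control and mivebresib lower (-1.60, adjusted p = 5.4e-05), a call that was lost at -1.496 without mivebresib replicate 1. LMCD1, a LIM domain corepressor, and SATB1, a chromatin organizer, had the largest differences (-4.03 and -3.61, adjusted p = 2.4e-06 and 4.8e-06), with the control between the drugs in each. The log2 FC of LMCD1 against control was -1.59 with mivebresib (adjusted p = 0.0012) and 2.43 with quisinostat (adjusted p = 1.4e-05). The study describes LMCD1 as raised by the treatments. CDH1, E-cadherin, had 0.695 and 0.539 CPM with mivebresib, 3.39 and 4.71 CPM with quisinostat and 1.31 and 2.26 CPM in the control (-2.71, adjusted p = 0.00019). PRAME, a cancer-testis antigen, was at -1.33 (adjusted p = 0.0053) and ROBO1, an axon guidance receptor raised by both drugs, at 0.82 (adjusted p = 0.00039). Of 8 UM driver genes none was called, and BAP1 was at -0.31 (adjusted p = 0.01). Of 29 Gq and MAPK output genes 5 were called lower (17.2%) and none higher, among them the ETS factor ETV4 (-2.93, adjusted p = 1.0e-05), and of 24 YAP targets 2 were called lower (8.3%), both shares being near the 12.6% of all genes or below it.

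HOX genes, which give cells their position along the body axis, had the lowest median of all 34 lists. Of 26 tested, 21 were called lower with mivebresib and none higher, against 12.6% of all genes, with a median log2 difference of -2.68. The median FC against control was -1.39 on the log2 scale for mivebresib and 0.99 for quisinostat. Mivebresib was called below control for 10 and above for none, and quisinostat above for 10 and below for none. HOXA7 had 0 counts in both mivebresib libraries and both control libraries and 83 and 71 counts with quisinostat, at least 44.9-fold lower with mivebresib. HOXC12 had 0 counts with mivebresib, 24 and 30 counts with quisinostat and 4 and 1 counts in the control, at least 15.8-fold lower. HOXB3 had 2 and 1 counts with mivebresib against 26 and 31 counts with quisinostat, 16.6 times fewer for the same depth, with an exact 95% counting interval from 5.41 to 83.0. The HOX genes not called were HOXC5, HOXA11, HOXB6, HOXD9 and HOXD8, with log2 differences from -1.01 to -0.42, and these 5 were picked for naming after their values were seen. The remaining 13 of 39 listed HOX genes did not pass the filter on low counts. Members with few counts elsewhere, such as HOXA7, HOXC12 and HOXB3, had their highest counts with quisinostat and could pass the filter through those libraries, so 21 of 26 describes the tested genes and is no measure over all HOX genes. Levels were low throughout, as the mean over the mivebresib libraries did not exceed 6.17 CPM in any tested HOX gene, and over the quisinostat libraries 22.1 CPM.

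**Figure D4:**
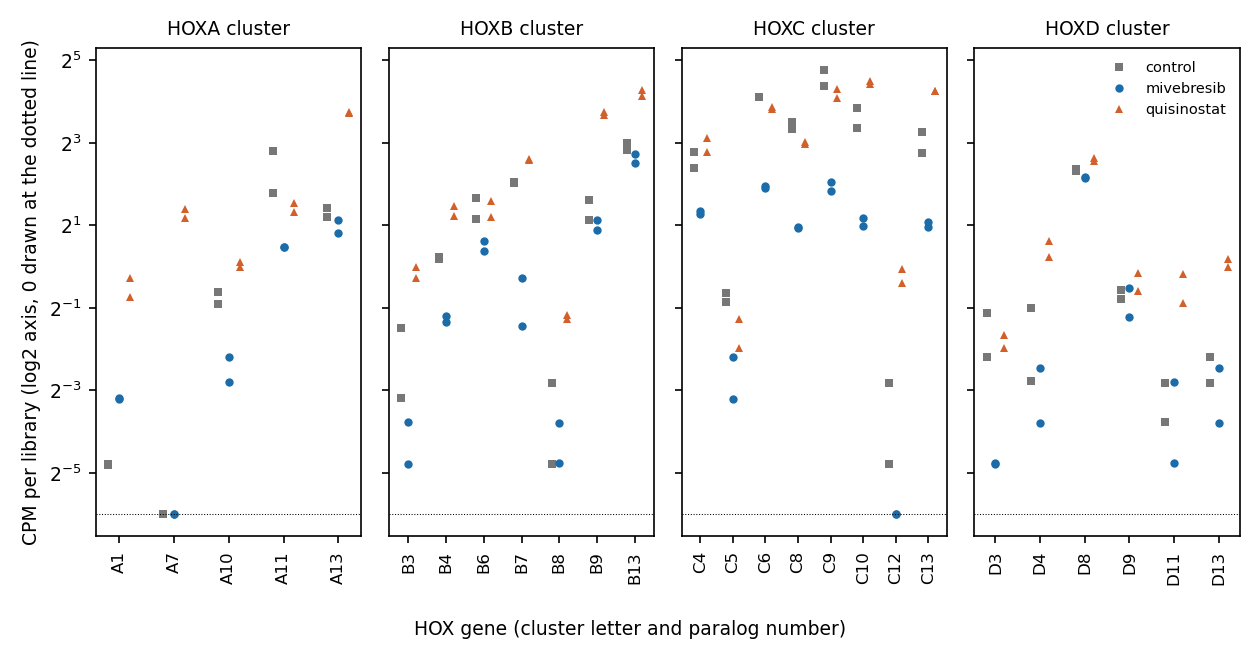
CPM of the 26 tested HOX genes (log2 axis; values of 0 are drawn on the dotted line) in the 2 control, 2 mivebresib and 2 quisinostat libraries, by cluster and in order of paralog number. Quisinostat (orange) lies above mivebresib (blue) in nearly all genes of the 4 clusters, while the control (grey) is near mivebresib in some genes and near quisinostat in others.

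Of 22 tested of 28 listed cytokine and NF-kappa B genes 10 were called lower with mivebresib (45.5%, against 12.6% of all tested genes) and none higher, with a median of -1.13. IL1A had at most 4 counts in any mivebresib or control library and could pass the filter on low counts only through other libraries. The count therefore describes the tested genes alone. Among all genes with a mean log2 CPM below 3, which include IL6, CCL2 and IL1A, 29.66% were called lower. IL6, interleukin 6, had 0.256 and 0.216 CPM with mivebresib, 7.38 and 6.4 CPM with quisinostat and 4.82 and 3.10 CPM in the control (-4.84, adjusted p = 7.0e-06). It overlaps STEAP1B on the opposite strand, whose difference was -2.77. CCL2, a chemokine for monocytes, had 2 and 7 counts with mivebresib, 88 and 108 counts with quisinostat and 255 and 204 counts in the control, so that both drugs were below control. IL1A, interleukin 1 alpha, had 3 and 0 counts with mivebresib and 117 and 105 counts with quisinostat, 64.8 times fewer for the same depth (exact 95% counting interval 21.9 to 317). Of 35 interferon response genes 7 were called lower (20%) and 1 higher (median -0.58). GBP2, a guanylate-binding protein, had 0.219 and 0.360 CPM with mivebresib, 8.61 and 8.88 CPM with quisinostat and 0.248 and 0.329 CPM in the control (-4.89, adjusted p = 1.8e-06). Its relative GBP1 had 0 counts with mivebresib and 61 and 60 counts with quisinostat, at least 35.3-fold lower. The 1 higher gene was IRF7, a transcription factor of the interferon response (2.37, adjusted p = 5.7e-05), at 17.7 and 12.4 CPM and 3.07 and 2.74 CPM. Of 21 antigen presentation genes 3 were called lower, a share of 14.3% that is near that of all genes. HLA-DMB, a chaperone of MHC class II, had 1.06 and 0.755 CPM with mivebresib and 6.08 and 6.69 CPM with quisinostat, both above the 0.142 and 0.256 CPM of the control (-2.81, adjusted p = 1.7e-05). The other 2 were the neighbouring immunoproteasome genes PSMB8 and PSMB9 (-2.34 and -2.03), which overlap each other on opposite strands.

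Of 24 collagen genes 7 were called lower (29.2%) and none higher, with a median of -0.98. Of 27 integrins and laminins 3 were called lower (11.1%, median -0.44), which is no more than the 12.6% of all tested genes. COL1A1, a chain of type I collagen, had 1.02 and 1.73 CPM with mivebresib, 10.4 and 7.99 CPM with quisinostat and 1.42 and 1.64 CPM in the control (-2.73, adjusted p = 4.3e-05). LAMB3, a laminin chain, had 1.32 and 1.04 CPM, 10.4 and 12.9 CPM and 1.13 and 3.03 CPM (-3.30, adjusted p = 9.9e-05). In both, mivebresib overlapped the control and quisinostat was above it. COL1A1 is also one of the fibroblast markers above, of which LUM was at 0 in all 4 libraries. ITGA4, an integrin of leukocytes and melanoma cells, was instead low with mivebresib alone, at 5.45 and 6.04 CPM against 34.6 and 40.6 CPM with quisinostat and 20.4 and 31.3 CPM in the control (-2.71, adjusted p = 2.0e-05).

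The largest differences downward outside these lists, at a mean log2 CPM of at least 3, varied in where the control lay relative to the drugs. In some genes, mivebresib had lowered a gene that quisinostat changed far less. CEMIP (chr15:80779343-80951776), which takes part in the breakdown of hyaluronan, had 4.61 and 4.03 CPM with mivebresib, 87.7 and 95.9 CPM with quisinostat and 77.4 and 115 CPM in the control (-4.41, standard error 0.21, adjusted p = 1.7e-06). RHOJ, a small GTPase, had 3.99 and 3.99 CPM, 69.8 and 66.2 CPM and 131 and 111 CPM in that order (-4.09, adjusted p = 5.5e-07). THBS1, thrombospondin 1, had 2.16 and 2.55 CPM, 29.9 and 33.7 CPM and 24.6 and 37.0 CPM (-3.75, adjusted p = 4.1e-06), and the phosphodiesterase PDE1C 1.57 and 2.23 CPM, 47.1 and 44.4 CPM and 25.1 and 29.9 CPM (-4.58, adjusted p = 6.3e-07). For CEMIP and THBS1 the quisinostat libraries lay inside the range of the control. THBS1 overlaps FSIP1 on the opposite strand, at a difference of -1.48.

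In others, quisinostat had raised a gene, and mivebresib left it near the control or below it. CD24, a surface glycoprotein, had 6.73 and 6.65 CPM with mivebresib, 106 and 102 CPM with quisinostat and 6.13 and 4.42 CPM in the control (-3.96, adjusted p = 6.3e-07). NPR3, the clearance receptor of natriuretic peptides, had 2.27 and 2.52 CPM, 56.5 and 60.5 CPM and 4.22 and 5.81 CPM (-4.61, adjusted p = 6.3e-07). The actin-binding protein ABLIM3 had 1.79 and 2.41 CPM, 39.5 and 34.4 CPM and 2.80 and 2.30 CPM (-4.13, adjusted p = 9.7e-07), and the neuronal calcium sensor NCALD 2.67 and 2.95 CPM, 37.2 and 38.1 CPM and 4.39 and 4.75 CPM (-3.74, adjusted p = 5.5e-07). For CD24 and ABLIM3 the mivebresib libraries were close to the control, with log2 FC of 0.34 and -0.28 (adjusted p = 0.092 and 0.27). NPR3 and NCALD were below the control with mivebresib, at -1.06 and -0.70 (adjusted p = 0.0013 and 0.0018). RBM24, an RNA-binding protein, and GYG2, a primer of glycogen synthesis, were further from the control with mivebresib than with quisinostat, with a log2 FC of -2.62 and -2.65 with mivebresib and 1.39 and 1.10 with quisinostat.

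Lists of housekeeping and stress functions held few or no calls. None was called among 52 ribosomal protein genes (median 0.082) or 23 heat shock and stress genes (median 0.47), and 1 of 27 lysosomal genes was called lower, the transcription factor TFEB (-2.15, adjusted p = 3.0e-05). The study also compiled, from a public database of drug responses in other cancers, genes that HDAC inhibitors often raise or lower, and so not from these samples. Of 78 tested genes often raised, none was called higher and 6 lower (7.7%) with mivebresib than with quisinostat (median -0.021), and of 100 often lowered, 4 were called higher (4.0%) and 2 lower (median 0.23). The share called lower among the first lay below the 12.6% of all tested genes. Against control, mivebresib was called above for 5 of the 78 and quisinostat for 8, where 3.96% and 11.2% of all tested genes were.

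**Figure D5:**
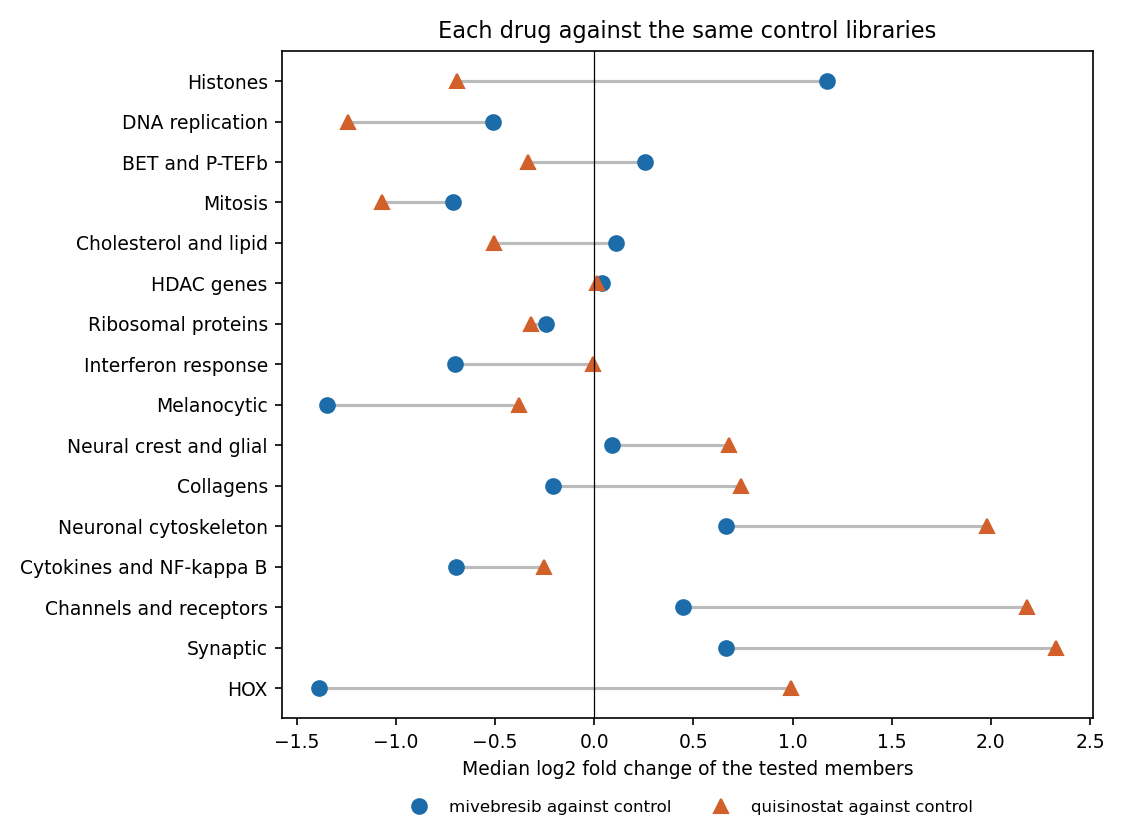
Median log2 FC against control of the tested members of 16 gene lists, for mivebresib (blue circles) and quisinostat (orange triangles), joined by a grey line; both drugs share the 2 control libraries. Histones and HOX genes have medians on opposite sides of 0 for the drugs (1.18 and -0.69, and -1.39 and 0.99), whereas DNA replication and melanocytic genes are below 0 and synaptic and channel genes above 0 for both.

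The called genes of either side had different median lengths. GENCODE 29 gave a unique entry for 94.8% of the tested genes. The median span of the protein-coding genes called higher with mivebresib was 11959 bases (218 genes, quartiles 3542 and 31915), that of the genes called lower 47856 bases (1767 genes, quartiles 14568 and 141273), and that of all tested protein-coding genes 33908 bases (13788 genes, quartiles 13385 and 82993). These are descriptions of the called genes, with no test, and histone genes are among the first group.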

How the data were processed

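Bulk mRNA of MP38 cells was sequenced from strand-specific libraries, and samples were grouped by their treatment labels. The authors deposited raw counts per gene symbol for 35238 symbols, a table of log10(CPM + 1) values of these counts, and a quantile-normalized score whose scale is not named. The submitters' notes name hg38; the aligner and whether counting used strand are not given in the sources used here. Genes were tested in edgeR 4.0.16 (R 4.3.3) by the quasi-likelihood test with TMM factors and filterByExpr by group, in 1 model of all 8 libraries, which left 15085 genes. The result is the contrast of mivebresib with quisinostat, and p-values were adjusted by the Benjamini-Hochberg method over all genes. Printed folds are 2 to the power of the fitted log2 difference, and genes with 3 or fewer counts over a group were given bounds or exact counting intervals, which cover counting error only. No replicate pair was identical, and each differed by more than sampling noise. On simulated counts with 200 genes changed by a log2 value of 2, the contrast recovered 99% with 2 false calls among 14708 genes. The changed genes left out those of fewest counts and were split evenly between up and down. The recovery therefore does not describe genes of few counts or an excess of calls in a single direction.

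The comparison and all 34 gene lists were chosen with earlier results of these data known, so lists are described by counts and medians without a test. The text names genes from the 12 largest called differences in each direction at a mean log2 CPM of at least 3, the 6 largest in each direction among genes called oppositely against control by the drugs, up to 3 called members a list and direction, all BET, P-TEFb and HDAC genes, and genes the study names. Coordinates are those of GENCODE 29. DESeq2 1.42.0 and limma 3.58.1 served as alternatives. A planned comparison of promoter features between called genes was not made, since only 69.7% of the higher and 70.6% of the lower genes had a sequence. The quantile table had been planned as log2 values and was therefore used with the adjusted p alone. A few genes covered by the naming rule are not reported here.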

Additional observations from a re-analysis of the deposited data

How the results depend on the processing

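No gene called in the main contrast had the opposite sign under any of the alternatives that gave a log2 difference, and lower genes made up 86.6% to 93.7% of the calls at the same thresholds. The counts of higher and lower genes were 241 and 1805 with DESeq2, 259 and 1901 with limma-voom, 178 and 2194 with libraries scaled by size alone, and 262 and 1894 with the replicate number as a block. Leaving out 1 library at a time gave 240 to 288 higher and 1809 to 2034 lower genes. Counts moved by more than 1.5 times with the adjusted p alone (3954 higher and 4756 lower), with a mean CPM of at least 5 (97 and 629, where 10701 genes were tested), and with limma on the log10 table (70 and 1033, where the added 1 CPM shrinks differences of low genes). The genes higher with mivebresib than with quisinostat numbered 730 at a log2 limit of 1 and 2346 in the quantile table by the adjusted p alone. Deviations of same-numbered mivebresib and quisinostat libraries correlated at 0.064, those of control with mivebresib at 0.158 and with quisinostat at 0.146, and pairs with romidepsin were below 0. With 2 pairs the numbers were not taken to pair the samples. The median of all genes was -0.033 in the main contrast, -0.212 by library size alone, -0.176 in the log10 table and -0.117 with upper-quartile factors. With it, genes near 0 changed sign: LARP7 (-0.019 by library size alone, -0.018 in the log10 table), HDAC1 (-0.048 and -0.05), HDAC5 (-0.083 and -0.082) and HDAC7 (-0.138 and -0.135, -0.042 with upper-quartile factors and -0.025 at the higher CPM minimum). Of 101 called genes covered by the naming rule, 76 passed both thresholds in every alternative that tested them. Medians of the 34 lists had another sign in 26 of 510 combinations with an alternative, none of them in the histone, replication, synaptic, channel, melanocytic or HOX lists. The promoter alternative was not run. Depth was nearly equal, and the 2 wells per drug limit the precision more than counting does, except in genes of few counts.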

Other observations

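Families of genes with a common symbol were looked at after the results above were known, so their counts are given without a test. Of 40 tested genes whose symbol begins with HIST, 27 (67.5%) were called higher with mivebresib than with quisinostat and none lower, with a median log2 difference of 1.91. Of all tested genes, 1.73% were called higher and 12.6% lower. Mivebresib was called above control for 20 of the HIST genes and quisinostat below control for 6, where 3.96% and 1.03% of all tested genes were.

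The clustered protocadherins, adhesion proteins whose combinations mark single neurons, were the mirror image. Of 48 tested, 32 (66.7%, against 12.6% of all tested genes) were called lower with mivebresib and none higher. The median log2 difference was -1.85, with a range from -7.06 to 0.67. The symbols include the pseudogenes PCDHB17P and PCDHB18P. Some members could pass the filter on low counts through the quisinostat libraries, so the counts describe the tested genes alone. PCDHA13, for example, had 2 counts over the mivebresib libraries and 88 over the quisinostat libraries. Against control, the medians were -0.68 for mivebresib and 1.32 for quisinostat, with 7 genes called below and 2 above control for mivebresib and 20 above and none below for quisinostat. Over all tested genes, 4.36% were below and 3.96% above control with mivebresib, and 11.2% above and 1.03% below with quisinostat. PCDHB7, named after its values were seen, had 1.54 and 1.83 CPM with mivebresib, 21.2 and 23.9 CPM with quisinostat and 6.38 and 11.4 CPM in the control (log2 difference -3.74, edgeR adjusted p = 1.3e-05). PCDHGC3, the most abundant member, had 214 and 205 CPM, 258 and 279 CPM and 263 and 367 CPM in that order and was not called (-0.36, adjusted p = 0.061). Alpha and gamma protocadherins share 3′ exons and beta protocadherins are near copies of each other, so their counts may be split between members.

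A pair of large families served for comparison. Of 489 tested zinc finger genes with a ZNF symbol, 11 (2.25%) were called higher and 36 (7.36%) lower, with a median of 0.02. Of 283 solute carriers, 3 (1.06%) were called higher and 45 (15.9%) lower, with a median of -0.11. The shares of all tested genes were 1.73% and 12.6%.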
